A study of Mus musculus with 32 samples.

Results

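The Toll-like receptors were followed across 3 sorted islet cell populations of the βVEGF-A model. The genes *Tlr1* to *Tlr9* and *Tlr13* were chosen by family membership, and all 10 were found among the 22850 genes of the expression table. The mice were βVEGF-A; MIP-GFP animals (MIP-GFP, RIP-rtTA and TetO-VEGF-A transgenes) on a C57BL/6 background. In these mice the rat *Ins2* promoter drives the reverse tetracycline transactivator rtTA, doxycycline (Dox) then induces the human VEGF-A transgene, and the mouse *Ins1* promoter drives GFP. No Dox control mice carried the same transgenes and received no Dox, 1wk Dox mice (on Dox) received it for 1 week, and 1wk WD mice (after withdrawal) were taken 1 week after it had been stopped. β cells were sorted as GFP+ cells negative for CD31 and CD11b, endothelial cells (ECs) as CD31+ cells and macrophages (MΦs) as CD11b+ cells, and islets of several mice were pooled for each sample. A CD11b gate can also take in other myeloid cells. The data used here held 4 β cell samples at No Dox, 5 on Dox and 3 after withdrawal, with 4, 1 and 5 samples for ECs and 4, 2 and 4 samples for MΦs. The study itself reports 3 to 5 biological replicates per cell type and time point, more than were available here for ECs and MΦs on Dox.

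Toll-like receptors are membrane proteins of innate immunity that recognise microbial molecules and molecules released by damaged cells. *Tlr1*, *Tlr2*, *Tlr4*, *Tlr5* and *Tlr6* act mainly at the cell surface, where they sense lipoproteins, lipopolysaccharide and flagellin. *Tlr3*, *Tlr7*, *Tlr8*, *Tlr9* and *Tlr13* sense nucleic acids inside endosomes, to which the chaperone *Unc93b1* carries them. Signals run through the adaptor *Myd88* for most of these receptors, through *Ticam1* for *Tlr3* and through both for *Tlr4*, to NF-κB and interferon regulatory factors, which switch on cytokine genes. MΦs are classical users of these receptors, and ECs are known to respond to lipopolysaccharide and double-stranded RNA.

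All values below are the normalized expression scores of the authors, which are not read counts and have a lowest possible value of 1. The scores of 1 sample summed to between 23465985 and 53441769 over all genes. The read depth behind them is not given in the sources used here, so no counting interval was attached to a value. The sorted populations carried their own markers: the summed score of 9 macrophage genes was 281569 to 485190 in MΦs at No Dox and 1wk Dox and up to 486241 after withdrawal, 483 to 916 in ECs, and 591 to 6346 in β cells. In ECs the macrophage receptor gene *Fcgr1* was at 1 to 4 and *Emr1* (F4/80) at 1 to 15. The β cell libraries stood apart from each other: in replicates 3 and 4 at No Dox the acinar marker sums, 10877368 and 8232742, were above the β cell marker sums, 1580385 and 596637. In replicates 1 and 2 at No Dox the stromal marker sum was 294 and 173, against 11908 to 212305 in the other 10 β cell samples. Since each sample is bulk RNA, fewer cells of a type and less RNA per cell cannot be told apart.

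**Figure D1:**
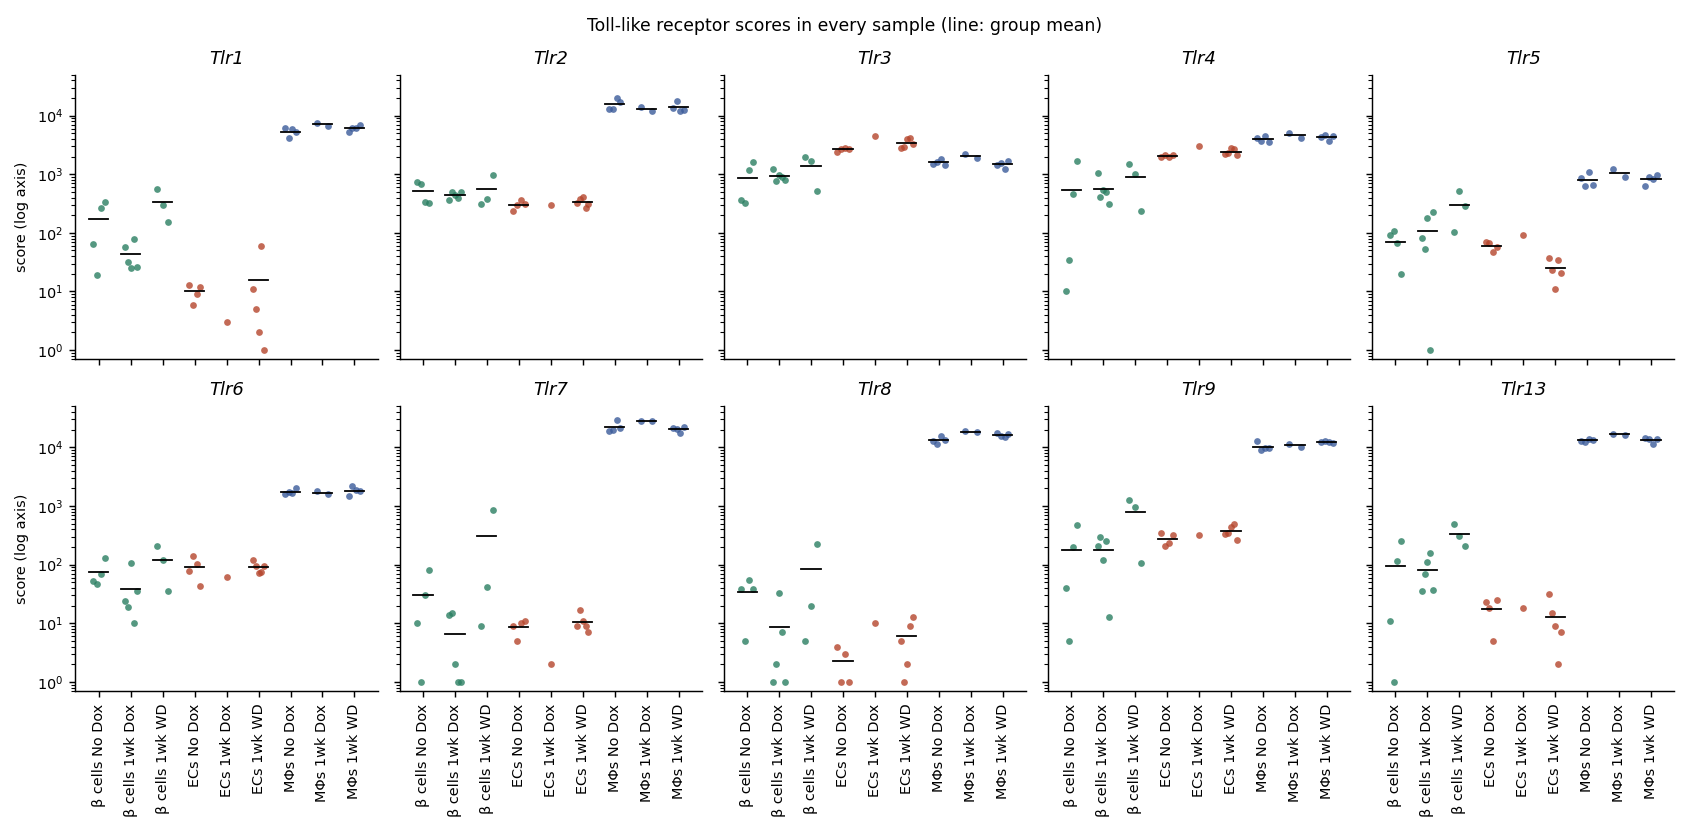
Normalized expression score (log axis) of the 10 Toll-like receptor genes in every β cell, EC and MΦ sample of the 3 time groups, with 1 point per sample. The MΦ points lie above all EC and β cell points for 9 genes, and *Tlr3* is the exception, with EC samples at 2413 to 4415 against 1248 to 2242 in MΦs. Over all genes tested, 25.2% had MΦ samples above all EC samples at No Dox and 26.8% at 1wk WD. Against β cells these shares were 22.3% and 26.1%.

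The endosomal receptors *Tlr7*, *Tlr8*, *Tlr9* and *Tlr13* had scores of at least 9031 in every MΦ sample. *Tlr7*, a sensor of single-stranded RNA (chrX:163742861-163768490 of mm9, minus strand), had scores of 18625, 19664, 29094 and 21396 in MΦs at No Dox, 28123 and 27812 on Dox, and 21358, 20793, 17586 and 22382 after withdrawal. In ECs *Tlr7* was at 2 to 17. All MΦ samples were above all EC samples, and the MΦ against EC difference at No Dox was 11.18 on the log2(score + 1) scale (limma, adjusted p = 9.41e-07). *Tlr8*, its neighbour on chrX (163680626-163702261, minus strand) and close relative, had scores of 13007, 11497, 15498 and 13057 in MΦs at No Dox, 18723 and 18394 on Dox, and 17593, 15649, 14796 and 16981 after withdrawal. ECs held *Tlr8* at 1 to 13, again without overlap, and the difference at No Dox was 12.11 (SE 0.64, adjusted p = 3.66e-08).

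*Tlr9*, which recognises unmethylated CpG DNA (chr9:106124929-106129207, plus strand), was at 12645, 9031, 9803 and 9724 in MΦs at No Dox, at 11594 and 10063 on Dox, and at 12529, 12674, 12124 and 11665 after withdrawal. ECs had a low *Tlr9* level of 208 to 501, still 5.25 lower on the log2 scale at No Dox (adjusted p = 0.00118). *Tlr13*, a sensor of bacterial ribosomal RNA (chrX:103338543-103355832, plus strand), was at 12753, 12349, 13973 and 13253 in MΦs at No Dox, at 17020 and 16116 on Dox, and at 14156, 13978, 11433 and 14055 after withdrawal. With EC scores of 2 to 31, the *Tlr13* populations did not overlap and differed by 9.64 at No Dox. Because *Tlr1*, *Tlr7*, *Tlr8* and *Tlr13* lie near the lowest score in ECs, the size of their fold depends on the pseudocount: with 20 in place of 1 the differences were 7.47, 9.58, 9.22 and 8.47, and all of them stayed past the threshold.

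Among the surface receptors *Tlr2*, which senses lipoproteins together with *Tlr1* or *Tlr6* (chr3:83640195-83645689, minus strand), had the highest level per kb of transcript in MΦs. Its MΦ scores were 12754, 12750, 19695 and 17131 at No Dox, 13811 and 11838 on Dox, and 13292, 17490, 12088 and 12664 after withdrawal. ECs held *Tlr2* at 233 to 409 and β cells at 309 to 977, so every MΦ sample was above both, and the MΦ against EC difference at No Dox was 5.68 (SE 0.29, adjusted p = 3.19e-08). *Tlr1* (chr5:65316050-65324000, minus strand) was at 4075 to 6147 in MΦs at No Dox, 6694 and 7393 on Dox and 5256 to 6997 after withdrawal, and at 1 to 60 in ECs. *Tlr6* (chr5:65344345-65351287, minus strand) was at 1587 to 1987, at 1577 and 1801, and at 1493 to 2154 in the same MΦ groups, and at 43 to 138 in ECs. The *Tlr1* and *Tlr6* transcripts share 454 windows of 50 bases, the read length, which is 17.4% of the *Tlr1* windows and 17.8% of the *Tlr6* windows, with a longest shared run of 229 bases, so that reads could be divided between these adjacent genes and their separate levels are uncertain. *Tlr5*, the flagellin receptor (chr1:184884919-184906175, plus strand), was the lowest of the 10 in MΦs, at 633 to 1078 at No Dox, 908 and 1215 on Dox and 632 to 972 after withdrawal.

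*Tlr3*, the receptor for double-stranded RNA (chr8:46481019-46495962, minus strand), ran the other way. Its EC scores were 2413, 2703, 2840 and 2699 at No Dox, 4415 in the single 1wk Dox sample, and 2808, 2946, 4030, 4171 and 3328 after withdrawal. Its MΦ scores were 1507, 1622, 1806 and 1457 at No Dox, 2242 and 1884 on Dox, and 1432, 1541, 1248 and 1704 after withdrawal. Every EC sample was above every MΦ sample. At 1wk WD *Tlr3* was lower in MΦs than in ECs by a log2 difference of -1.21 (SE 0.32, adjusted p = 0.00519), which passed the 2-fold threshold. At No Dox the difference was -0.74 (SE 0.44), and its adjusted p was 0.204 with the spread shared over β cells, ECs and MΦs and 0.000297 with only MΦs and ECs in the fit, in both cases under 2-fold.

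*Tlr4*, the lipopolysaccharide receptor (chr4:66488618-66591318, plus strand), was within 2-fold between MΦs and ECs at both times compared. Its MΦ scores were 4175, 3740, 4530 and 3521 at No Dox, 4948 and 4195 on Dox, and 4250, 4595, 3640 and 4476 after withdrawal. Its EC scores were 1978, 2098, 1993 and 2160 at No Dox, 3033 on Dox, and 2198, 2270, 2742, 2732 and 2158 after withdrawal. The ranges did not overlap, yet the differences, 0.95 at No Dox and 0.81 after withdrawal, stayed under 2-fold. Their adjusted p was 0.569 and 0.0936 with the shared spread and 4.22e-05 and 7.18e-05 with only MΦs and ECs in the fit.

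By the rule of an adjusted p under 0.05 and at least a 2-fold change, 8 of the 10 receptors were higher in MΦs than in ECs at No Dox, where 17.6% of 16380 genes tested were, and none was lower. At 1wk WD the same 8 receptors were higher, against 20.8% of 16435 genes, and *Tlr3* alone was lower, against 19.6%. The median member difference at No Dox was 5.47 on the log2 scale, and the median of all genes was 0.01. Expressed as a percent of the MΦ mean at No Dox, the EC median was 181% for *Tlr3* and 54.6% for *Tlr4*, between 1.99% and 5.21% for *Tlr2*, *Tlr9*, *Tlr6* and *Tlr5*, and at most 0.141% for *Tlr1*, *Tlr13*, *Tlr7* and *Tlr8*. The macrophage marker sum of the ECs was 0.149% to 0.283% of its MΦ mean. The EC medians of the first 6 receptors were above that share, and those of the last 4 were below it. The dendritic cell and monocyte marker sums of the ECs were higher shares of theirs, 29.7% to 42.6% and 16.7% to 31.0%. At No Dox these sums came mostly from *Zbtb46* (11383 to 13784), *Clec9a* (4365 to 5099) and *Nr4a1* (9373 to 10333), while *Itgax* was at 1 to 4 and *Ccr2* at 1 to 6 in ECs. The part of myeloid RNA in the EC values was not tested.

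**Figure D2:**
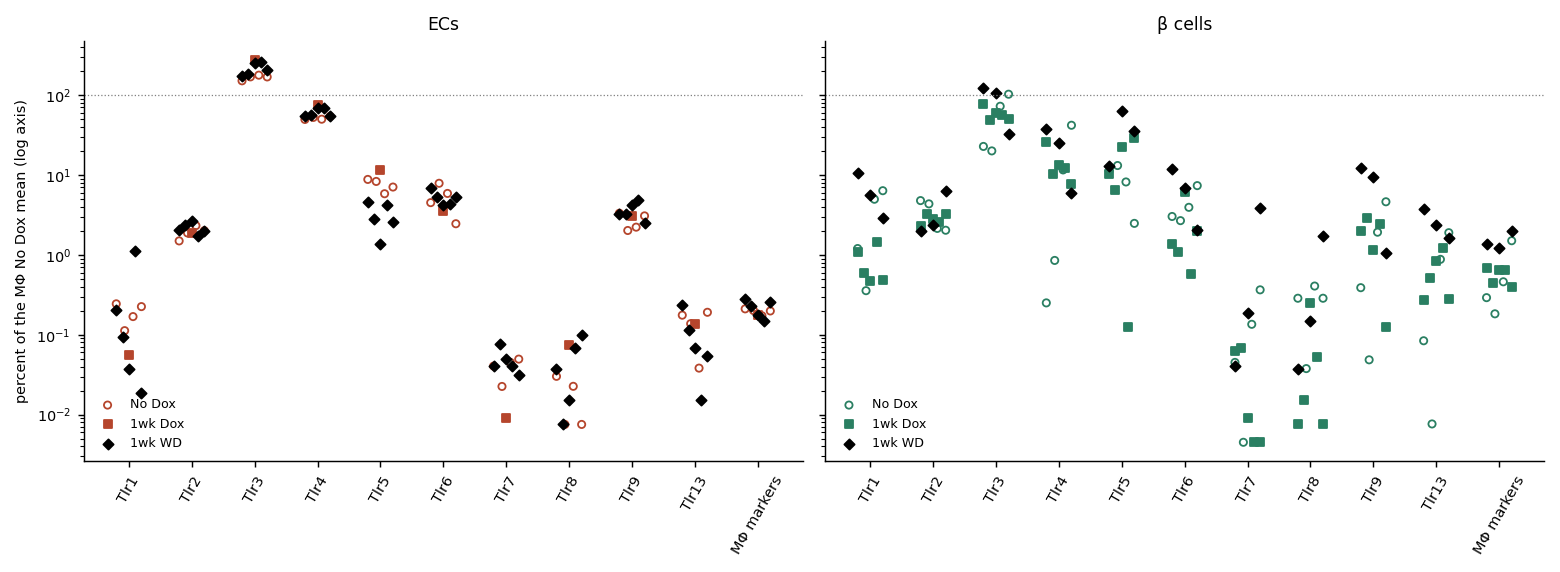
Score of each receptor in β cell and EC samples as a percent of the mean of the 4 MΦ samples at No Dox (log axis), with 1 point per sample, beside the same percent for the macrophage marker sum. *Tlr3* and *Tlr4* lie highest, with EC medians of 181% and 54.6%, and *Tlr7* and *Tlr8* lowest, with EC medians of 0.0406% and 0.0264%.

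For a comparison between genes the scores were divided by the length of the longest annotated transcript. In MΦs at No Dox the order of mean score per kb was *Tlr7* (5695), *Tlr2* (5172), *Tlr8* (3866), *Tlr13* (3222) and *Tlr9* (2968), and within these 5 each gene overlapped the next. Below them *Tlr1* (2010 per kb), *Tlr4* (979 per kb) and *Tlr6* (673 per kb) each had a range apart from the next gene, and *Tlr3* (369 per kb) overlapped *Tlr5* (252 per kb). ECs at No Dox had another order, with *Tlr3* at 616 per kb and *Tlr4* at 505 per kb in ranges of their own. These were followed in ECs by *Tlr2* and *Tlr9*, which overlapped each other at 99.7 and 78.9 per kb, by *Tlr6* and *Tlr5* at 34.9 and 18.9 per kb, and by the 4 others, each under 5 per kb. In β cells at No Dox *Tlr3* (201 per kb), *Tlr2* (172 per kb) and *Tlr4* (134 per kb) had the highest means, and each of the 10 genes overlapped the next in order. It was not stated whether the deposited scores already take account of transcript length.

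**Figure D3:**
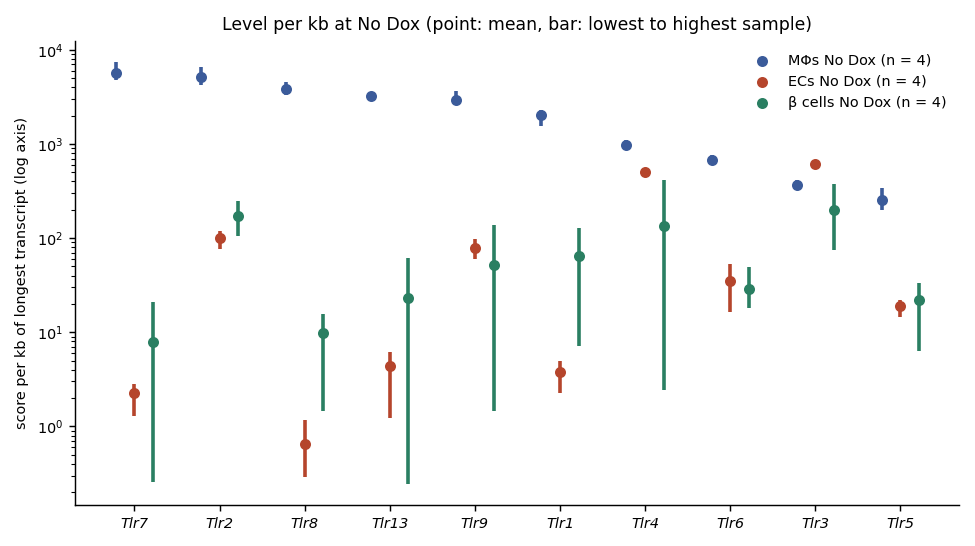
Mean score per kb of transcript (log axis) of the 10 receptors in β cells, ECs and MΦs at No Dox, with a point for the mean and a bar from the lowest to the highest of 4 samples. *Tlr7* leads in MΦs at 5695 per kb and *Tlr3* leads in ECs at 616 per kb.

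The promoter table from RefSeq (GRCm38.p6) holds 10 start sites of 8 of the receptors, without *Tlr4* and *Tlr7*. The 250 bases before the start are shown for *Tlr8*, *Tlr9* and *Tlr13*, 3 endosomal receptors with a MΦ-high level, and for *Tlr2* and *Tlr3*, the leading surface receptor and the EC-high receptor. Capitals mark GAGGAA on either strand, the core of the binding motif of PU.1, a transcription factor of myeloid cells.
Tlr8 (chrX:167264330-167264579, minus strand): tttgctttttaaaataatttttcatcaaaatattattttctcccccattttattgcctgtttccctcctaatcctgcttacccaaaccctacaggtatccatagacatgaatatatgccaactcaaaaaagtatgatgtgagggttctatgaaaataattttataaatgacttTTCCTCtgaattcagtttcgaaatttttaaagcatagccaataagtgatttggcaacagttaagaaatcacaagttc
Tlr9 (chr9:106222348-106222597, plus strand): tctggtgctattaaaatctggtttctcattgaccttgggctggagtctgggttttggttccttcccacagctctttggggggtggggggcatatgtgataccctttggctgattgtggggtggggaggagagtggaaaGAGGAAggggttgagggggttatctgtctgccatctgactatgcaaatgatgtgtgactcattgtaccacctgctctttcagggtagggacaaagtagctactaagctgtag
Tlr13 (chrX:106143025-106143274, plus strand): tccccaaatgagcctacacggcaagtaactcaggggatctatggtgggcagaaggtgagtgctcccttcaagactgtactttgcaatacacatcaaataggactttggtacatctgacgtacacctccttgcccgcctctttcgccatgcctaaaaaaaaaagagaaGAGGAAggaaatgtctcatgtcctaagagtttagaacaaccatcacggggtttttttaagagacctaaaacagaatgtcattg
Tlr2 (chr3:83841609-83841858, minus strand): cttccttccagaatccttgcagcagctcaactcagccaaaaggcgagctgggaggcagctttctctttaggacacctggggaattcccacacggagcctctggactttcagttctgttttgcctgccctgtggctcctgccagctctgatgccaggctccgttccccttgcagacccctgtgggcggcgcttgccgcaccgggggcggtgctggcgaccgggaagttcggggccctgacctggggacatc
Tlr3 (chr8:45410381-45410630, minus strand): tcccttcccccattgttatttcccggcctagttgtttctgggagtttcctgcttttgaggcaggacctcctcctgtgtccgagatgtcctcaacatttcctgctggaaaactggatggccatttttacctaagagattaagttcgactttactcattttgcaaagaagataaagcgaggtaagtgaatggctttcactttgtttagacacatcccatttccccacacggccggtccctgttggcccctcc

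GAGGAA was found 77 bases before the start of *Tlr8*, on the opposite strand, 112 bases before that of *Tlr9* and 83 bases before that of *Tlr13*. One of the 2 *Tlr1* start sites also had it, 23 bases upstream. It was thus in 4 of the 10 receptor promoters, and in 23.3% of all 32851 promoters of this length. The core of the interferon-stimulated response element (GAAA, any 2 bases, then GAAA) was found only upstream of 1 of the 2 *Tlr6* start sites, as 2 overlapping matches on the opposite strand at 116 and 110 bases, and in 2.98% of all promoters. The first transcribed bases of the *Tlr3* start and of these *Tlr1* and *Tlr6* starts were in no GENCODE M1 transcript of the gene, and those of the second *Tlr1* and *Tlr6* starts, which had neither motif, were. These matches describe letters in a window, not binding.

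Over time, none of the 10 receptors passed the threshold in MΦs. At 1wk Dox against No Dox the count was 0 of 10 by limma, where 2.26% of 15014 genes changed in either direction. Without 1wk Dox replicate 4, 1 of the 2 samples of that group, 0 of all genes were called. At an unadjusted p under 0.05 there were 3 of 10 receptors, beside 21.3% of all genes: *Tlr8* with a log2 difference of 0.49 (SE 0.15, adjusted p = 0.0755), *Tlr1* with 0.42 (adjusted p = 0.199) and *Tlr13* with 0.34 (adjusted p = 0.175). For these 3 and for *Tlr3* both 1wk Dox samples were above all 4 No Dox samples, a separation that 16.2% of all genes showed upward. The median of the 10 differences was 0.35, against 0.03 over all genes. *Tlr2* and *Tlr6* were the only receptors with a lower mean, with differences of -0.26 and -0.05. The 95% intervals of all 10 differences lay between -0.71 and 0.98, inside 2-fold in either direction.

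At 1wk WD against No Dox the MΦ groups overlapped for every receptor and 0 of 10 passed, beside 0.626% of genes, with *Tlr8* alone at an unadjusted p under 0.05 (0.30, adjusted p = 0.229), where 17.3% of genes were. The 95% intervals lay between -0.52 and 0.56. At 1wk WD against 1wk Dox the count was again 0 of 10, beside 0.0866% of genes, and 3 receptors were at an unadjusted p under 0.05, namely *Tlr3* (-0.48), *Tlr7* (-0.45) and *Tlr13* (-0.31), where 9.7% of genes were. *Tlr3*, *Tlr7*, *Tlr8* and *Tlr13* were lower in all 4 1wk WD samples than in both 1wk Dox samples, a separation that 16.6% of all genes showed downward, and *Tlr9* was higher in all 4, as 13.4% of genes were. The macrophage marker sum moved with these groups, from 281569 to 348758 at No Dox to 400519 to 485190 on Dox and 399976 to 486241 after withdrawal. *Siglech*, a marker of plasmacytoid dendritic cells, which are known for *Tlr7* and *Tlr9*, went from 2339 to 3248 at No Dox to 1010 and 1091 on Dox and 1379 to 2387 after withdrawal, and was the 1 of 4 tested markers of that list called lower on Dox. Of 7 dendritic cell markers 1, *Ccr7*, was called higher on Dox. The summed score of these 7 overlapped between the groups, at 40075 to 50452 at No Dox, 42188 and 42308 on Dox and 35870 to 53280 after withdrawal. The part of these cells in the receptor values was not tested.

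**Figure D4:**
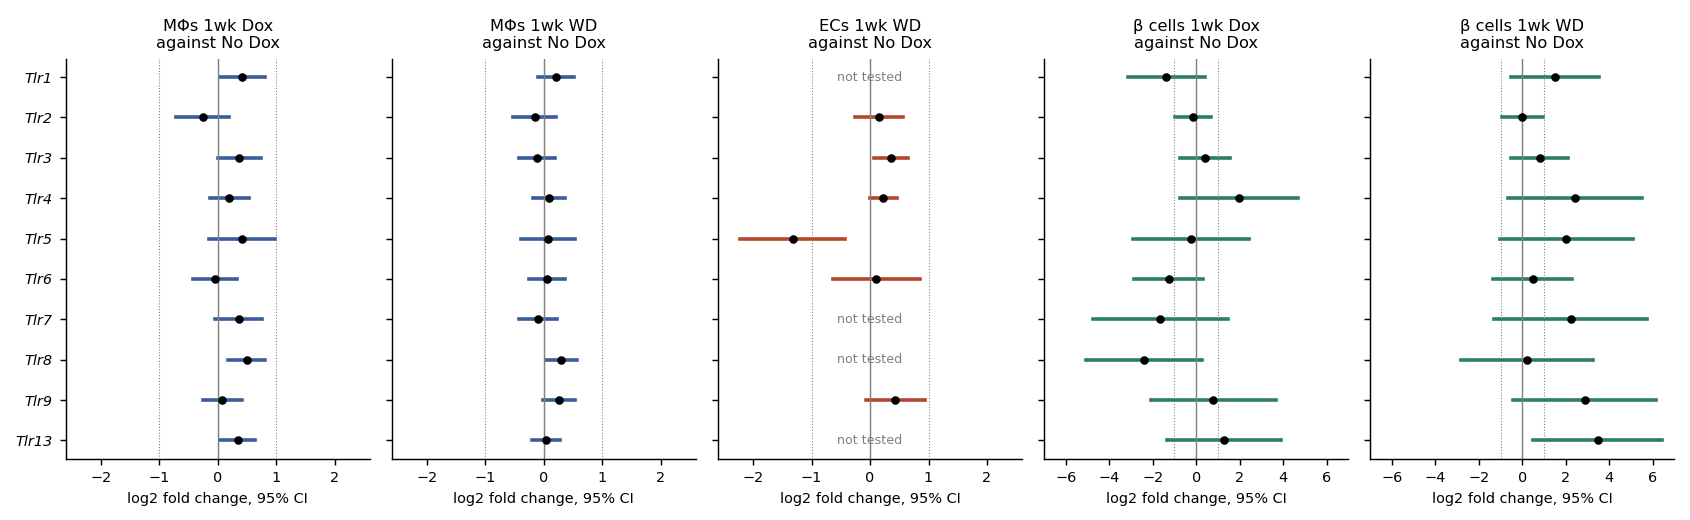
Log2(score + 1) difference of each receptor with its 95% interval (limma) for 1wk Dox and 1wk WD against No Dox in MΦs and β cells and for 1wk WD against No Dox in ECs. The MΦ intervals lie between -0.71 and 0.98, and the β cell intervals reach from -5.06 to 6.44.

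In ECs 6 receptors had a mean score of at least 20 and could be compared, and *Tlr1*, *Tlr7*, *Tlr8* and *Tlr13* could not. At 1wk WD against No Dox 0 of 6 passed by limma, beside 1.76% of 14167 genes, and 2 were at an unadjusted p under 0.05, beside 21.9% of genes. *Tlr5* was at 71, 67, 47 and 57 in ECs at No Dox and at 37, 23, 11, 34 and 21 at 1wk WD. All 5 *Tlr5* values after withdrawal were below the 4 No Dox values, a separation that 4.91% of genes showed downward, with a difference of -1.32 (SE 0.42, adjusted p = 0.0984), which ranged from -1.49 to -0.86 over the alternatives with adjusted p of 0.0527 to 0.227. *Tlr3* differed by 0.36 (SE 0.13, adjusted p = 0.143), and its groups overlapped. In the single 1wk Dox sample, which allows no test, 0 of 6 receptors were past 2-fold from the No Dox mean, where 10.7% of genes were. *Tlr3*, *Tlr4* and *Tlr5* were above the No Dox range in that sample by log2 differences of 0.73, 0.56 and 0.61 from the mean, and *Tlr2*, *Tlr6* and *Tlr9* were within it, while 35.9% of all genes were above their range there. The EC marker sum was 535884 to 568394 at No Dox and 393853 to 463753 at 1wk WD, and its part in the EC values was not tested.

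Whether the withdrawal response differed between MΦs and ECs was tested as an interaction. *Tlr1*, *Tlr7*, *Tlr8* and *Tlr13*, near the lowest score in ECs, had no EC response to set against that of MΦs. Of the other 6 receptors 0 passed by limma, beside 1.4% of 15603 genes. At an unadjusted p under 0.05, beside 21.2% of genes, were *Tlr5*, with a MΦ minus EC difference of responses of 1.39 (adjusted p = 0.104), and *Tlr3*, with -0.47 (adjusted p = 0.169).

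β cells had lower receptor scores than MΦs, and their samples lay far apart. All 10 receptors were higher in MΦs than in β cells at No Dox, against 19.7% of genes, and 9 were at 1wk WD, against 19.2%. *Tlr3* was the weakest of them, with 1.21 at No Dox (adjusted p = 0.0345, overlapping groups, not called under 8 of 17 alternatives) and 0.31 at 1wk WD (adjusted p = 0.487). *Tlr3* in β cells was at 364, 320, 1159 and 1640 at No Dox, 1248, 770, 965, 890 and 796 on Dox, and 1937, 1689 and 514 after withdrawal. *Tlr4* was at 10, 34, 462 and 1674, then 1038, 415, 529, 492 and 312, then 1494, 1001 and 240 in the same β cell samples. For both genes the first 2 No Dox replicates and 1wk WD replicate 3 were low.

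*Tlr2* had the opposite order in β cells, at 745, 678, 334 and 317 at No Dox, 358, 502, 441, 400 and 501 on Dox, and 309, 372 and 977 after withdrawal. Its 3 highest samples were the same 3 samples, which also had the highest β cell marker sums, 5313896 to 10524284 against 445948 to 2713451 in the other 9. In these 3 samples *Tlr2* was at 678 to 977, against 309 to 502 in the other 9. *Tlr3* was at 320 to 514 in the 3 samples against 770 to 1937, and *Tlr4* at 10 to 240 against 312 to 1674, without overlap in either case. For the other receptors, *Tlr1*, *Tlr5*, *Tlr6*, *Tlr7*, *Tlr8*, *Tlr9* and *Tlr13*, the 3 samples overlapped the other 9. This split of the samples by marker sum was made after the values were seen and carries no test.

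*Tlr7* and *Tlr8* were near the lowest score in most β cell samples. *Tlr7* was at 1 to 81 in 11 samples and at 861 in 1wk WD replicate 3, and *Tlr8* at 1 to 54 in 11 samples and at 227 in that same sample. Its macrophage marker sum, 6346, was also the highest of the β cell samples, where these sums were 0.183% to 1.96% of the MΦ mean. The part of MΦ RNA in these values was not tested. *Tlr9* (5 to 476 at No Dox, 13 to 294 on Dox, 108 to 1259 after withdrawal), *Tlr1* (19 to 339, 25 to 77, 154 to 559) and *Tlr13* (1 to 248, 36 to 160, 211 to 492) had their highest β cell score after withdrawal. So did *Tlr2*, *Tlr3*, *Tlr5*, *Tlr6*, *Tlr7* and *Tlr8*, while *Tlr4* was highest at No Dox (1674). The macrophage marker sums of the β cell samples were 591 to 4860 at No Dox, 1274 to 2184 on Dox and 3971 to 6346 after withdrawal. Their part in these scores was not tested. *Tlr5* was at 1 to 510 and *Tlr6* at 10 to 207 over the 12 samples.

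ECs against β cells at No Dox had 2 receptors higher, *Tlr3* (1.95) and *Tlr4* (3.97), against 16.5% of genes, and 2 lower, *Tlr1* (-3.29) and *Tlr8* (-3.15), against 21.2%. These 4 kept the call under all 17 alternatives, but their size depended on the β cell samples and the pseudocount. *Tlr4* ran from 2.77, without β cell replicate 1, to 6.71, without replicates 3 and 4, *Tlr1* from -4.09 to -1.76 and *Tlr8* from -3.87 to -1.17. At 1wk WD *Tlr3* (1.52) and *Tlr4* (1.76) were again higher, against 14.8% of genes, and 5 were lower, against 25.2%, namely *Tlr1* (-5.28), *Tlr13* (-4.93), *Tlr5* (-3.36), *Tlr7* (-2.69) and *Tlr8* (-2.48). The last 2 lost the call in 10 of 16 alternatives each. Without β cell 1wk WD replicate 3 the number called at 1wk WD fell from 7 to 4, with *Tlr3*, *Tlr4*, *Tlr7* and *Tlr8* lost and *Tlr9* gained. Macrophage marker sums at No Dox were 591 to 4860 in β cells and 559 to 682 in ECs. At 1wk WD they were 3971 to 6346 and 483 to 916. The part of MΦ RNA in these differences was not tested.

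Over time 0 of 10 receptors passed by limma in β cells, in all 3 comparisons. At 1wk Dox against No Dox 0.0122% of 16346 genes were called and no receptor was at an unadjusted p under 0.05, where 6.99% of genes were. At 1wk WD against No Dox 0% of genes were called and *Tlr13* alone was at an unadjusted p under 0.05 (3.46, adjusted p = 0.601), where 8.17% of genes were. At 1wk WD against 1wk Dox 0% of genes were called, and *Tlr1* (2.88, adjusted p = 0.643), *Tlr6* and *Tlr7* were at an unadjusted p under 0.05, where 6.31% of genes were. *Tlr1* and *Tlr13* were higher in all 3 1wk WD samples than in all 5 1wk Dox samples, as 2.97% of genes were. These counts depended on the No Dox samples. Without replicates 3 and 4, an alternative chosen after seeing the data, *Tlr4* (4.71) and *Tlr13* (3.84) were called higher on Dox, where 6.8% of genes were, and *Tlr1* (3.04), *Tlr3* (1.80), *Tlr4* (5.18) and *Tlr13* (6.02) after withdrawal, where 8.17% were. The 2 No Dox samples that remain are those with the stromal marker sums of 294 and 173. They also had the lowest macrophage marker sums of the 12 β cell samples, 942 and 591 against 1274 to 6346, the lowest dendritic cell sums, 482 and 310 against 2286 to 14616, and the lowest monocyte sums, 1141 and 520 against 1916 to 6574. Their endothelial marker sums were 2243 and 1636, against 1503 to 55274 on Dox, with replicate 5 alone below 6447, and 4319 to 16711 after withdrawal. Dox replicate 1 had the highest endothelial sum and, at 1038, the highest *Tlr4* of its group. The part of stromal, myeloid and endothelial RNA in the differences was not tested.

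Of the 2 other mouse receptors in the table, *Tlr12* changed in MΦs and *Tlr11* did not pass the test. *Tlr12*, an endosomal sensor of the protein profilin, was at 426, 288, 321 and 474 in MΦs at No Dox, 1130 and 1081 on Dox, and 1219, 942, 766 and 756 after withdrawal. All 6 later samples were above all 4 controls, with differences of 1.58 (SE 0.26, adjusted p = 0.0101) and 1.29 (adjusted p = 0.0184). The calls were kept in 9 of 14 alternatives on Dox and in 11 of 16 at 1wk WD, with limma adjusted p up to 0.0850 at 1wk WD. Both were lost, among others, without the trended prior (adjusted p = 0.0561 and 0.0843). The 1wk Dox call was also lost without either 1wk Dox replicate, which leaves 1 sample in that group. The 1wk WD call was also lost without 1wk WD replicate 2 or 3 (adjusted p = 0.0787 and 0.0523). *Tlr11*, its close relative, was at 730 to 1286, 594 and 694, and 799 to 1628 in MΦs, at 1 or 2 in ECs, and at 3 to 800 in β cells.

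The other genes of the pathway were taken by role, and their counts are to be read beside the 17.6% of all genes that were higher and 15.9% that were lower in MΦs than in ECs at No Dox. Of 6 co-receptors 3 were higher in MΦs than in ECs at No Dox, namely *Ly86* (10.61), *Cd14* (6.48) and *Cd180* (5.24), which present or modulate ligands at the receptors. Of 10 trafficking and processing genes 6 were higher, among them the proteases *Ctss* (11.47) and *Lgmn* (4.06), which process endosomal receptors, and the chaperone *Unc93b1* (3.47), while the protease *Ctsl* (-1.53) was lower. Of 5 adaptors 1 was higher (*Ticam2*, 7.72), and of 14 kinases and ubiquitin ligases 4 were (*Irak2*, 2.19, *Ikbke*, 1.46, *Irak4*, 1.12, and *Tab2*, 1.00). The transcription factors had 5 of 8 higher, with *Irf5* (6.02) and *Rel* (4.75) leading. The negative regulators had 6 of 12 higher, with the receptor *Il1rl1* (11.91) and the ubiquitin editor *Tnfaip3* (5.48) leading, and *Sigirr* lower (-2.74). Of 17 inflammatory target genes 12 were higher, with *Il1b* (13.18) and the chemokines *Ccl3* (12.86) and *Ccl4* (12.22) leading, and 1 was lower. The medians were 3.54 for co-receptors, 1.94 for trafficking genes, 0.74 for adaptors, 0.70 for kinases and ubiquitin ligases, 1.54 for transcription factors, 0.82 for negative regulators and 7.54 for target genes, against 0.01 over all genes.

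**Figure D5:**
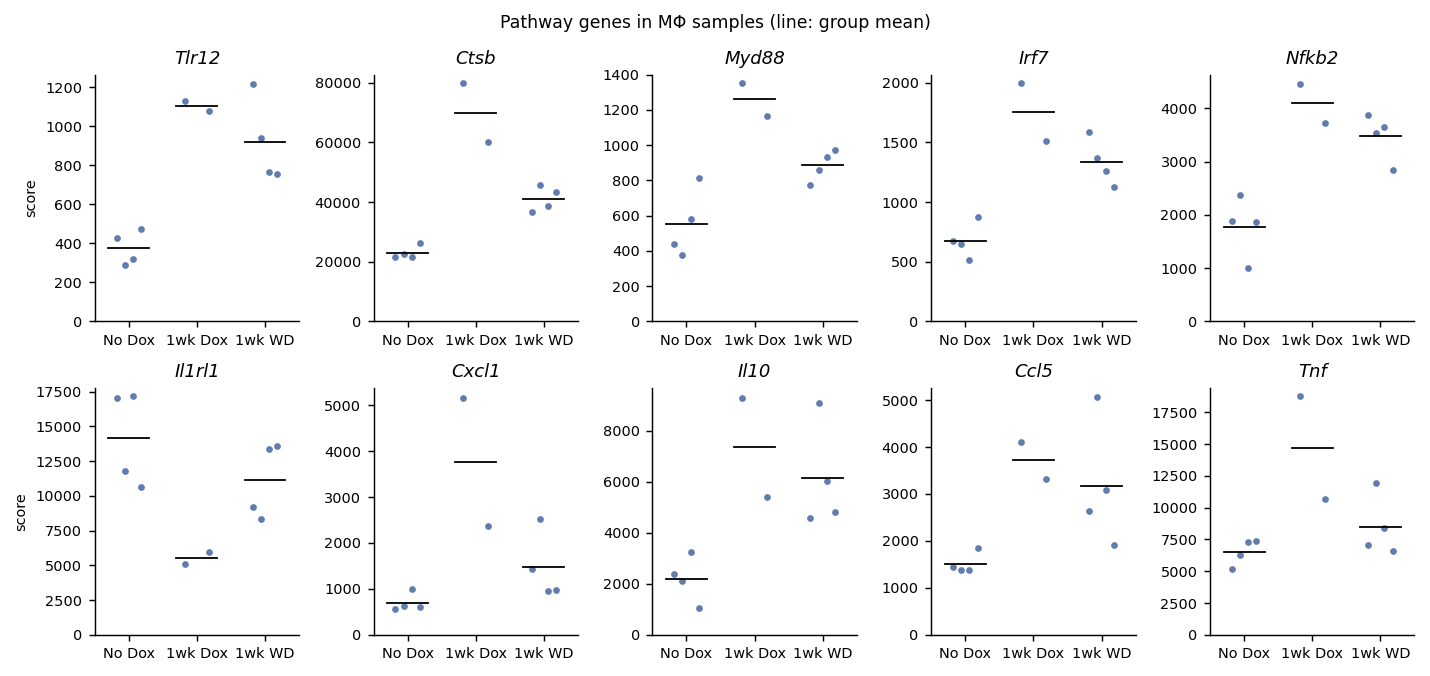
Score in every MΦ sample (linear axes from 0) of *Tlr12* and the 9 other pathway genes called at 1wk Dox against No Dox, with 1 point per sample and a line at the group mean. Both 1wk Dox points lie above all 4 No Dox points for 9 genes and below them for *Il1rl1*, and the 2 *Tnf* points on Dox, 18758 and 10721, lie far apart. Over all genes 16.2% lay above in this way and 14.7% below, and the genes shown were chosen because they were called.

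In MΦs several of the other pathway genes were called over time. At 1wk Dox, where 1.61% of all genes rose, 1 of 5 adaptors, 2 of 8 transcription factors, 4 of 17 target genes and 1 of 10 trafficking genes rose, 1 of 12 negative regulators fell, beside 0.653% of all genes, and 0 of 6 co-receptors and 0 of 14 kinases passed. *Myd88*, the common adaptor, was at 441, 378, 581 and 814 at No Dox and 1352 and 1167 at 1wk Dox (1.24, adjusted p = 0.0257). The interferon regulatory factor *Irf7* (1.39, adjusted p = 0.0101) was at 511 to 872 and then 1995 and 1514. The NF-κB subunit *Nfkb2* (1.26, adjusted p = 0.0249) was at 995 to 2368 and then 4458 and 3723. For these 3 genes both 1wk Dox samples were above all 4 controls, as for 16.2% of all genes. They were named because they were called on the same samples.

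Among the target genes the neutrophil chemokine *Cxcl1* rose most, from 560 to 993 at No Dox to 5148 and 2366 at 1wk Dox (2.36, adjusted p = 0.0101). The anti-inflammatory cytokine *Il10* (1.81, adjusted p = 0.0249), the chemokine *Ccl5* (1.30, adjusted p = 0.0279) and the inflammatory cytokine *Tnf* (1.14, adjusted p = 0.0311) rose with it. The cathepsin *Ctsb* went from 21499 to 26316 at No Dox to 79830 and 60112 at 1wk Dox (1.59, adjusted p = 0.00131). *Il1rl1*, the interleukin 33 receptor, fell from 10676 to 17177 to 5060 and 5941 (-1.34, adjusted p = 0.0135). All of these calls were lost without 1wk Dox replicate 4, and *Ctsb* and *Cxcl1* alone were kept without replicate 5. Without the trended prior, *Ctsb* alone of them was kept. Some markers of other cells moved with these groups. The endothelial marker sum was 1746 to 2427 in MΦs at No Dox, 3402 and 4165 on Dox and 2063 to 3068 after withdrawal, with a list median of 1.37 and 0 of 8 markers called on Dox. The summed score of 6 T and NK cell markers was 1284 to 1886 at No Dox, 3148 and 3355 on Dox and 3374 to 4740 after withdrawal, with 1 of 5 tested markers, *Cd4*, called higher both times, while the list median on Dox was -0.44. The acinar sum went from 21249 to 10407305 at No Dox to 1018 and 3148 on Dox, with 3 of 6 markers called lower, and was 1498 to 183634 after withdrawal. The part of these cells in the pathway values was not tested. At 1wk WD against No Dox *Nfkb2* (1.03, adjusted p = 0.0458) and *Il10* (1.54, adjusted p = 0.0409) were called, and after withdrawal against 1wk Dox no gene of these lists was. Both 1wk WD calls were lost in most alternatives.

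In ECs the list genes gave 1 call at 1wk WD against No Dox, upward, where 1.28% of all genes were called higher and 0.487% lower. *Lbp*, which delivers lipopolysaccharide to *Cd14*, was at 130, 327, 254 and 108 at No Dox, 453 in the single 1wk Dox sample, and 522, 566, 415, 499 and 499 after withdrawal. The 5 samples after withdrawal were all above the 4 controls (1.42, SE 0.29, limma adjusted p = 0.0215), a separation that 5.75% of genes showed upward. The call was kept in 14 of 17 alternatives, with adjusted p up to 0.140. It was lost, among others, without No Dox replicate 1 (adjusted p = 0.0732). Stromal markers moved with it in ECs, 3 of 7 being called higher, with a summed score of 1111 to 2234 at No Dox and 1723 to 7156 at 1wk WD. *Lbp* was at 1 in the 2 β cell samples with the lowest stromal sums and at 103 to 1046 in the other 10. All 6 acinar markers were called lower in ECs at 1wk WD, with sums of 57666 to 1552663 and then 657 to 55318. The part of stromal and acinar RNA in the *Lbp* values was not tested. In β cells none of the list genes passed in any comparison over time.

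The genes most like each receptor were found by Pearson's r of log2(score + 1), as a description. Over all 32 samples, in which the points share 3 cell types and so mostly mark the difference between them, *Tlr7* ran most closely with *Ms4a7*, *Ccl3* and *Ccl12* (r up to 0.986), and *Tlr8* with *Mgl2*, *Clec4n* and *Ms4a7* (0.983). *Tlr13* ran with *Ly86*, *Ctss* and *Cxcl16* (0.986), *Tlr9* with *C130026I21Rik*, *Aim2* and *Zc3h12a* (0.971), and *Tlr2* with *Skint3*, *Sirpb1c* and *Ccl9* (0.990). *Tlr1* was nearest to *Ccr2*, *Fcgr2b* and *Pik3ap1* (0.975), *Tlr6* to *9030617O03Rik*, *Csf3r* and *Birc3* (0.955), and *Tlr5*, with the lowest likeness, to *Lrrc8d*, *Dnajb14* and *Dgat2* (0.889). *Tlr4* had *Cd97*, *Trim30d* and *Rin3* (0.977) nearest, and *Tlr3*, with the EC-high pattern, *Sash1*, *Rbms1* and *Zbtb46* (0.955).

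Over the 10 MΦ samples alone, among 10466 genes, the nearest genes were others. *Tlr3* was nearest to *Ly96* (0.966), the co-receptor of *Tlr4*, then *4930547N16Rik* and *Gclm*, and *Tlr1* to *Ptpn7* (0.964), *Gbp5* and *Kpnb1*. *Tlr6* was nearest to the cytokine signalling inhibitor *Socs3* (0.955), then *Gabrb1* and *Clec2i*, and *Tlr9* to *Tnip1* (0.948), *C130039O16Rik* and *D11Wsu47e*. *Tlr7* had *2700029M09Rik* (0.954), *Krr1* and *Med11* nearest, *Tlr8* had *Tgs1* (0.953), *Ulk2* and *Trim12c*, and *Tlr13* had *Fkbp1a* (0.929), *Nsmce4a* and *Shfm1*. *Tlr2* was nearest to *AU019823* (0.941), *Mcl1* and *Scyl2*, *Tlr4* to *Dmxl1* (0.943), *Med30* and *4930471M23Rik*, and *Tlr5* to *Slfn9* (0.933), *Il1a* and *C330027C09Rik*. With 10 samples and so many genes, high values of r arise readily, and no test was attached to them.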

How the data were processed

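Islet β cells, ECs and MΦs were sorted and their amplified RNA was sequenced as paired 50 bp reads. According to the study's methods and processing notes, the authors aligned reads to mm9 with TopHat 2.0 and normalized by TMM in Avadis NGS. The deposited values are normalized expression scores per gene, with a lowest value of 1, not counts, and 6 columns, which match no sample analysed here, were not used. Scores were analysed as log2(score + 1) with limma 3.58.1 (R 4.3.3, trended prior), fitted over every gene whose mean score reached 20 in a compared group. The fit used the 3 time groups of 1 cell type, or the 3 cell types at 1 time, and Benjamini-Hochberg adjustment. A gene was called at an adjusted p under 0.05 and at least 2-fold. The fitting script was tested on simulated data. p-values measure the spread between pooled samples. The receptors and pathway and marker lists were chosen with earlier results of these data known. Named genes were all receptors, list genes called (up to 4 per list, by size) and the 3 nearest by Pearson's r. Gene coordinates are those given with the deposited scores, and transcript lengths come from GENCODE M1 on mm9. Alternatives comprised a pseudocount of 20, other filters, scaling, sample weights, a replicate block and leaving out each sample.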

Additional observations from a re-analysis of the deposited data

Results flagged for a closer look

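Each receptor was screened in each group of 4 or 5 samples for a sample far from the others, and 2 of 60 screens were positive, where chance gives about 1 in 20. *Tlr8* was at 5 in β cell No Dox replicate 2, against 38 to 54 in the other 3 samples. *Tlr13* was at 11433 in MΦ 1wk WD replicate 3, against 13978 to 14156 in the other 3.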

How the results depend on the processing

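Of 254 counts of called receptors under an alternative, 250 stayed within 1.5 times, and of 2254 single receptor values 2210 kept their side of the threshold, 31 lost the call and 13 gained it. The sign changed in 56 of these values, all of differences that were not called with all samples. The number called for ECs against β cells at 1wk WD was 4 to 7 when 1 sample was left out (7 with all samples), and 4 without β cell 1wk WD replicate 3. The single EC 1wk Dox sample had 3 receptors past 2-fold with no filter on low scores. Without the 2 acinar-rich β cell No Dox samples, chosen after seeing the data, 2 receptors were called on Dox and 4 after withdrawal, and 1199 and 1424 of all genes in place of 2 and 0. Replicate numbers were not taken to pair samples: deviations of same-numbered samples correlated at -0.49 to 0.35 over 18 pairs between times, 5 of them over 0.1, and at -0.19 to 0.41 over 22 pairs between cell types, 7 of them over 0.1. With the replicate block 0 receptors were called in MΦs, ECs or β cells over time and 6 in place of 7 for ECs against β cells at 1wk WD, the other counts being equal to those without it. Over all genes the block called 3 in place of 340 in MΦs at 1wk Dox and 43 in place of 94 at 1wk WD. Over all alternatives these MΦ counts ran from 0 to 712 and from 11 to 218, at 1wk WD against 1wk Dox from 0 to 313 (13), in ECs at 1wk WD from 27 to 553 (250), for the interaction from 92 to 362 (219), and past 2-fold in the single EC sample from 939 to 2365 (1503). The block also lost each list gene call in MΦs at 1wk Dox (adjusted p of 0.0953 to 0.430). Of 205 values of list genes called over time 83 lost the call. The cause was not tested. Calls at 1wk Dox in MΦs rest on 2 samples, and in the table no read depth stands behind the scores near 1.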
